A study of Mus musculus with 40 samples.

Results

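The loci of 10 genes of fibroblast growth factor (FGF) signalling and of the feedback on the kinase ERK were followed through a reporter screen for enhancer activity. The genes were the receptors Fgfr1 and Fgfr2, the ligand Fgf2, the phosphatases Dusp4 and Dusp6, the Sprouty genes Spry1, Spry2 and Spry4, and the ETS factors Etv4 and Etv5. A fragment was assigned to a locus when its centre lay in the mm10 RefSeq gene body or within 25 kb of it, and overlapping fragments were merged into regions. This gave 504 distinct fragments of 354627 in the whole screen, 638 listed fragments of 458486 when each library was counted on its own, and 64 regions of 75060. Fragments were assigned to the loci by position alone.

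FGF ligands bind receptor tyrosine kinases of the FGFR family, which signal through RAS and RAF to the kinases MEK and ERK. ERK activity induces its own inhibitors: the Dusp6 and Dusp4 proteins remove the activating phosphates from ERK and related kinases, the Sprouty proteins act higher in the cascade between receptor and RAF, and Etv4 and Etv5 are transcription factors whose genes are switched on by FGF and ERK. The repressor Capicua (CIC) holds the Etv genes and several other targets down until ERK relieves it. In mouse ES cells FGF and ERK signalling moves cells out of self-renewal, and FGF2 is a mitogen for mesodermal and endothelial cells.

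The screen used the mouse ES cell line HM-1, in which the Hprt locus is non-functional and is repaired as the reporter cassette integrates there, so that every group carried the same repaired allele. Open-chromatin fragments cut by Tn5 at 5 stages of blood cell specification were cloned in front of an Hsp68 minimal promoter and the Venus-YFP gene, and the libraries were mixed before transfection. The cells were then sorted as undifferentiated ES cells (ES), FLK1+ hemangioblast-like cells (HB), hemogenic endothelium 1 (HE1; KIT+ TIE2+ CD41-), hemogenic endothelium 2 (HE2; KIT+ TIE2+ CD41+) and hematopoietic progenitors (HP; KIT+ TIE2- CD41+), all from serum cultures. Each stage was split into 4 gates, Negative, Low, Medium and High, by YFP level, with the Negative gate set on a line with the minimal promoter and no fragment, and the whole was done as 2 replicates, which gives 40 libraries in 10 sorts of a stage and a replicate. A fragment is called positive in a sort when it was listed in the Low, Medium or High gate. The clones were pooled, so a fragment reports what the cells holding it did in 1 integration site, Hprt, outside its own locus, and the surface markers of the sorted cells cannot be checked in these files.

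The replicates differed strongly in depth. Replicate 1 held 361181 listed fragments with a median of 15805 per library, and replicate 2 held 97305 with a median of 2750, over a range of 654 to 51146 for single libraries. Fragments of replicate 2 were also longer and poorer in G and C. At the 10 loci the mean GC content was 56.0% ± 7.44 (SD over 453 distinct fragments) in replicate 1 and 52.6% ± 7.13 (SD over 56) in replicate 2, and the median length was 166 bp and 218.5 bp. Over all fragments the corresponding means were 55.6% and 49.6%. Of all distinct fragments 1.83% had their centre within 1500 bp of a RefSeq start site, and none of the 64 regions at the 10 loci was centred that close, the nearest being centred 1579 bp upstream of Dusp6. The values below therefore concern regions centred away from the promoters of these genes. The edges of a few regions, such as the one upstream of Dusp6, do reach within 1500 bp of a start.

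Over the 64 regions 32 were intergenic, 29 lay in introns and 3 in exons. The regions were unevenly filled: 28 consisted of 1 listed fragment, 43.8% against 55.0% of all regions, and 11 had 20 or more. The region with most positive fragments is called the leading region of a gene. The 10 leading regions, 6 of them intergenic and 4 in introns of their own gene, held 273 of the 473 positive fragments counted over the sorts, or 57.7%.

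The sequences of 7 leading regions, each with 20 or more listed fragments, are shown because they had the most positive fragments of any region at these genes. Each is the 250 bp window of the GRCm38 (mm10) plus strand that most fragments covered, in 5′ to 3′ order, read from the RefSeq genome assembly. Capitals mark matches on either strand to short consensus letters. For factors downstream of ERK these were TGACTCA for AP-1, the core GGAAGT for ETS factors, the octamer TGAATGAA bound by CIC, and the CArG box of SRF, which is named and not spelled out. For factors of the developmental stages they were GGAATG for TEAD factors, the run ACAANGG for SOX factors, the letters AGATAA for GATA factors, the letters TGTGGT for RUNX factors, the octamer ATGCAAAT for OCT factors, and the E-box CAGCTG. Matches of different factors may overlap.
Fgfr1 window, chr8:25543536-25543785: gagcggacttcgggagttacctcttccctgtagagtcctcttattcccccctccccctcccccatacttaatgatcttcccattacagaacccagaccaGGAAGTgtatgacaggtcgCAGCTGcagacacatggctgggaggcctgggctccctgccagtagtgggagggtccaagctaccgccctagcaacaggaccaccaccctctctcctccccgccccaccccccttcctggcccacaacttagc
Fgf2 window, chr3:37332184-37332433: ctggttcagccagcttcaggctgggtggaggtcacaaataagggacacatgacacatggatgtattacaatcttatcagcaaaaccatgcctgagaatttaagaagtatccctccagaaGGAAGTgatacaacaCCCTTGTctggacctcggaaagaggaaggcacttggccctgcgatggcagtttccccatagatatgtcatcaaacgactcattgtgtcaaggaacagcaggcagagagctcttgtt
Dusp4 window, chr8:34815316-34815565: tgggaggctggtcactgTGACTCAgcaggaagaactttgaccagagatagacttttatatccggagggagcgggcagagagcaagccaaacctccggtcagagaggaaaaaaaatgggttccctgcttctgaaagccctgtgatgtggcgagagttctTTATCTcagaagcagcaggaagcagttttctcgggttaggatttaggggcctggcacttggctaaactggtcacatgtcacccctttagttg
Spry1 window, chr3:37666824-37667073: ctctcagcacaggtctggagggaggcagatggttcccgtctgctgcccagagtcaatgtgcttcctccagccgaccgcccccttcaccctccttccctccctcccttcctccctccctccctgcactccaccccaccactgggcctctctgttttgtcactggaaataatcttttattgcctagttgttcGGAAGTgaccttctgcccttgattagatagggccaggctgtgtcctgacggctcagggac
Spry2 window, chr14:105898783-105899032: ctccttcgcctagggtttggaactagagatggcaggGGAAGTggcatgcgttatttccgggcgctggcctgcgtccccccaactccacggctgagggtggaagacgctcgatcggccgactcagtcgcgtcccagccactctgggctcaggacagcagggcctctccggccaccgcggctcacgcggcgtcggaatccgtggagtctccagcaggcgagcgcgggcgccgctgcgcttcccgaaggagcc
Etv4 window, chr11:101772546-101772795: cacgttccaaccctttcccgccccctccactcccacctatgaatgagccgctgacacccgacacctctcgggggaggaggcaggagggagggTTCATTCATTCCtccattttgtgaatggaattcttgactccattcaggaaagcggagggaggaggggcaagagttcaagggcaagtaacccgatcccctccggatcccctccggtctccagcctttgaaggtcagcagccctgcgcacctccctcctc
Etv5 window, chr16:22428978-22429227: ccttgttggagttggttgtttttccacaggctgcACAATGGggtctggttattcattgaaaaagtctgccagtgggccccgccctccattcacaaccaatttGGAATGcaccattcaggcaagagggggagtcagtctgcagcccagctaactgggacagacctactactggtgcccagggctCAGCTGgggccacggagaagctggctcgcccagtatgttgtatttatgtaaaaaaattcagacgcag
The windows of Fgfr1, Dusp4, Etv4 and Etv5 lie in introns of these genes and those of Fgf2, Spry1 and Spry2 are intergenic.

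An ETS match stood in the windows of Fgfr1, Fgf2, Spry1 and Spry2, and was the sole match in both Sprouty windows. The Etv4 window held the CIC octamer on the minus strand, overlapping a TEAD match, an octamer found in none of the other 6 windows. The Dusp4 window held an AP-1 and a GATA match, and the Etv5 window a SOX, a TEAD and an E-box match. To set these matches beside all regions, the central 200 bp of every region was searched, which is another window than the one printed, and the 3 Spry4 regions were left out. ETS matches were in 10 of 61 regions at the loci (16.4%) and in 16.5% of all 72630 regions searched, AP-1 matches in 4 (6.56%, 7.03% of all), SOX matches in 11 (18.03%, 11.83% of all) and the CIC octamer in 1 (1.64%, 1.09% of all). The CArG box was in 0 of 61 against 0.949% of all regions. TEAD matches were in 9 (14.75%, 12.97% of all), GATA in 7 (11.48%, 11.46% of all) and RUNX in 9 (14.75%, 16.43% of all). E-box matches were in 9 (14.75%, 13.93% of all) and OCT in 1 (1.64%, 1.06% of all). Among regions with 20 or more listed fragments, 10 at the loci and 5568 in all were searched. ETS matches were in 2 of these 10 (20.24% of the 5568), AP-1 in 0 (10.99%) and SOX in 1 (12.5%). GATA matches were in 2 (11.26%), TEAD in 1 (12.5%), RUNX in 0 (15.3%) and E-box in 3 (18.5%). The CIC octamer was in 1 (0.772%), and OCT matches and the CArG box were in 0 (0.862% and 0.952%). These are counts of letters in a window and say nothing of binding.

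**Figure D1:**
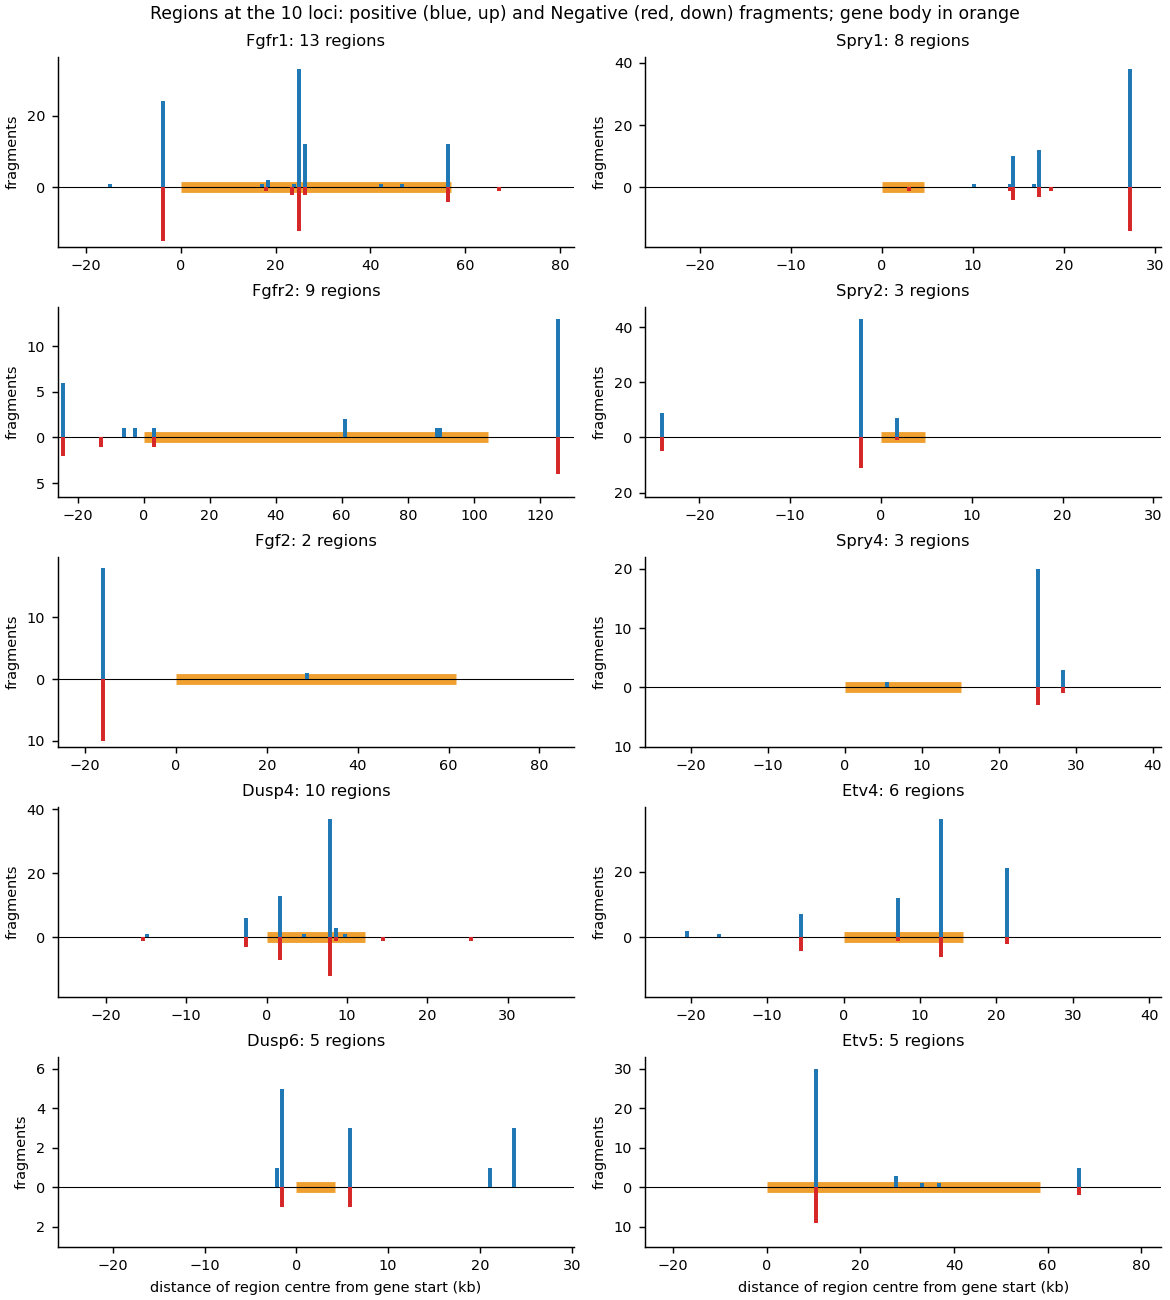
Positive fragments (blue, upward) and Negative fragments (red, downward) in each region of the 10 loci, summed over the 10 sorts, against the distance in kb of the region centre from the gene start, positive in the direction of transcription. The gene body is the orange bar, and at each of the 10 genes 1 or a few regions carried most fragments, for example the regions 27.2 kb downstream of the Spry1 start and 2.2 kb upstream of the Spry2 start.

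Among the receptors and the ligand, Fgfr1, a receptor needed for the formation of mesoderm, had the most fragments of the 10 loci. Its locus held 127 listed fragments in 13 regions, with 88 positive and 37 Negative fragments, and stood at the 94.5th percentile of protein-coding loci, whose median was 9. Positive fragments at Fgfr1 per sort were 15, 12, 30, 12 and 11 at ES, HB, HE1, HE2 and HP in replicate 1 and 2, 0, 4, 1 and 1 in replicate 2. The locus was thus listed as positive in 9 of the 10 sorts. The leading region (chr8:25543156-25544173) lies in an intron 24.9 kb inside the gene and had 33 positive and 12 Negative fragments, with positives at 5 stages and in both replicates. A region 3.9 kb upstream of the gene (chr8:25514199-25515581) had 24 positive and 15 Negative fragments, of which 17 positives were in the Medium gate and 1 in the High gate. The window of this locus also reaches Letm2 and the gene Gm16159 inside it, and of its 98 distinct fragments 36 had the Fgfr1 start as the nearest, whereas at the other 9 loci every fragment was nearest to the named gene.

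Fgfr2, a receptor whose epithelial isoform binds FGF7 and FGF10, had 35 listed fragments in 9 regions, 26 of them positive and 8 Negative counted over the sorts. Its positives were 0, 2, 4, 11 and 2 over the stages in replicate 1 and 1, 2, 4, 0 and 0 in replicate 2. Its leading region (chr7:130141028-130141667) is intergenic beyond the 3′ end of the gene and had 13 positive and 4 Negative fragments, 7 of the positives at HE2 in replicate 1. At Fgf2 28 of the 29 listed fragments fell in a single intergenic region 16.0 kb upstream of the gene (chr3:37332087-37332772), with 18 positive and 10 Negative. Fgf2 had no fragment at ES in any gate, and its positives were 3, 9, 2 and 4 at HB, HE1, HE2 and HP in replicate 1 and 1 at HB in replicate 2, the last of these in an intron. A count of 0 has a limit of 3 counts, at ES 1.08 and 3.33 per 10000 positive fragments of the sort in replicates 1 and 2. The Fgf2 values at the other stages lay below these limits, the highest being 1.01 at HP in replicate 1. The absence at ES thus does not set that stage apart.

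The phosphatase genes differed in how much of them was sampled. Dusp4, whose product acts on ERK in the nucleus, had 91 listed fragments in 10 regions, 62 positive and 26 Negative. Positives at Dusp4 were 3, 13, 21, 10 and 11 over the stages in replicate 1 and 0, 1, 2, 0 and 1 in replicate 2. The leading region (chr8:34815093-34815917) is in an intron 7.9 kb from the start and had 37 positive and 12 Negative fragments, listed 18 times in the Medium and 16 times in the High gate. It had none at ES, and 36 of its 37 positives were from replicate 1. A second intronic region 1.7 kb from the start had 13 positive and 7 Negative fragments. Dusp6, which acts on ERK in the cytoplasm and is a standard readout of FGF signalling, had the fewest: 15 listed fragments in 5 regions, 13 positive and 2 Negative, with a percentile of 57.2 among protein-coding loci. Its leading region, 1579 bp upstream of the start (chr10:99261504-99261800), had 5 positives and 1 Negative, all 5 from replicate 1 and from 4 stages. A region 23.7 kb downstream had 3 positives, 1 in replicate 1 and 2 in replicate 2.

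The Sprouty genes encode inhibitors that ERK signalling itself induces. Spry1 had 88 listed fragments in 8 regions, 63 positive and 24 Negative, with positives of 2, 13, 29, 13 and 3 over the stages in replicate 1 and 1, 2, 0, 0 and 0 in replicate 2. The leading region is intergenic 27.2 kb downstream of the start (chr3:37666733-37667548), where 38 positive and 14 Negative fragments were listed, and 20 of the positives were in the Medium gate. Of those 38 positives 11 were at HB, 18 at HE1, 8 at HE2, 1 at HP and none at ES, all in replicate 1. Spry2 was the only one of the 10 loci with positive fragments in all 10 sorts, 11, 9, 12, 11 and 10 over the stages in replicate 1 and 1, 2, 1, 1 and 1 in replicate 2. Its leading region, 2.2 kb upstream of the start (chr14:105898651-105899398), had 43 positive and 11 Negative fragments, 7 or more positives at each stage in replicate 1 and 1 in replicate 2. A region 24.1 kb upstream (chr14:105920590-105921209) ran the other way, with 4 positives in replicate 1, all at ES, and 5 in replicate 2, 1 at each stage. It also had 5 Negative fragments, 1 at ES in replicate 1 and 1 at each of HB, HE1, HE2 and HP in replicate 2. Its 18 listed fragments were 5 distinct ones. At ES, HE1, HE2 and HP the Spry2 positive of replicate 2 came from this region. Spry4 had 28 listed fragments in 3 regions, 24 positive and 4 Negative. Its leading region, 25.0 kb from the start and beyond the 3′ end, had 20 positive and 3 Negative fragments, with positives of 5, 5 and 10 at HB, HE1 and HE2 and none at ES or HP, all in replicate 1.

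The ETS factor genes are direct readouts of FGF signalling in many tissues. Etv4 had 93 listed fragments in 6 regions, 79 positive and 13 Negative. Its positives were 8, 9, 37, 18 and 5 over the stages in replicate 1, and in replicate 2 it had 2, both at HE1 in the Low gate. The leading region, in an intron 12.8 kb from the start (chr11:101772138-101772954), had 36 positive and 6 Negative fragments, with positives of 5, 5, 17, 6 and 3 over the 5 stages. A region 21.4 kb downstream of the start (chr11:101763645-101764225), centred in an exon of the neighbouring gene Dhx8, had 21 positive and 2 Negative fragments, also at 5 stages, and both regions were listed in replicate 1 alone. Etv5 had 52 listed fragments in 5 regions, 40 positive and 11 Negative, with positives of 3, 8, 10, 8 and 3 over the stages in replicate 1 and 2, 0, 6, 0 and 0 in replicate 2. Its leading region is intronic, 10.5 kb from the start (chr16:22428623-22429523), and had 30 positive and 9 Negative fragments from 5 stages and both replicates. A region 66.8 kb from the start, beyond the 3′ end (chr16:22372598-22372984), had 5 positives, all in replicate 2.

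**Figure D2:**
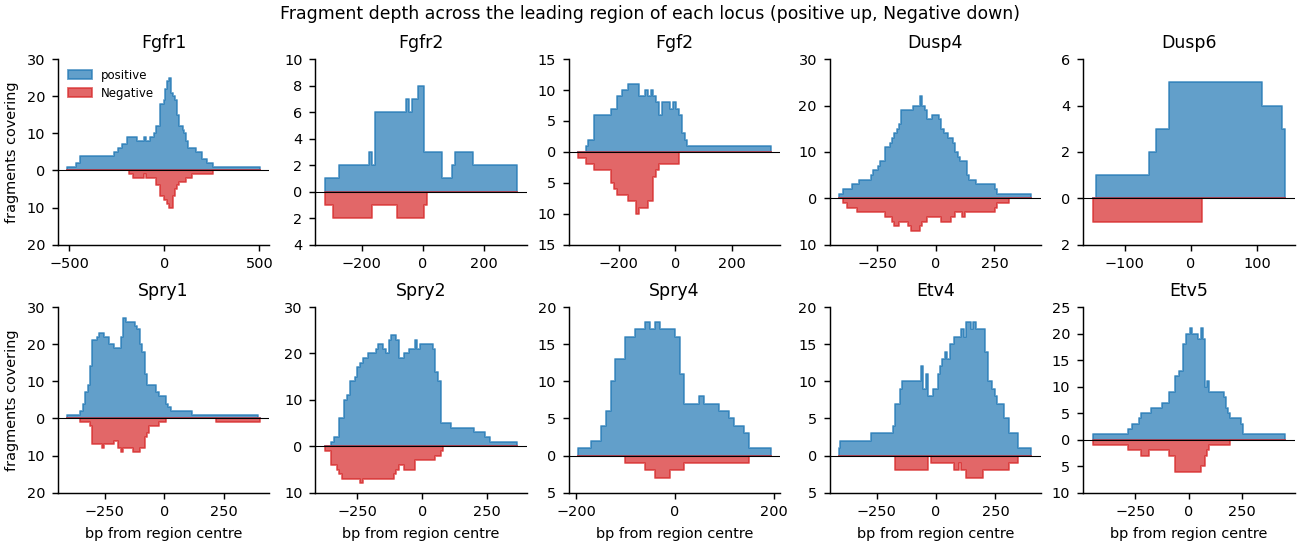
Number of fragments that cover each position of the leading region of each gene, positive upward in blue and Negative downward in red, against the distance in bp from the region centre, summed over the sorts with a separate vertical scale for each gene. Positive and Negative fragments piled up over the same stretch of the region at Fgfr1, Dusp4, Spry1 and Spry2.

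The first question put to these loci was whether their fragments were positive more or less often than fragments elsewhere. For each gene locus the positive and Negative fragments were compared with those outside it by a Cochran-Mantel-Haenszel test over the 10 sorts, adjusted by the Benjamini-Hochberg method over all 13041 gene loci with at least 20 listed fragments. Fragments of a sort come from the same pool of cells, so the intervals and p-values cover counting error only. Over all loci 13 were called at an adjusted p under 0.05, a percent_called of 0.0997%, 5 higher and 8 lower, and 435 had an unadjusted p under 0.05. When the replicates of a stage were pooled, 24 were called. None of the 9 loci tested here was called and none had an unadjusted p under 0.05, and Dusp6, with 15 fragments, was not tested. The ratio of observed to expected positives was above 1 at 4 of the 9 and below 1 at 5, with a median of 0.963 against 1.00 over all loci tested.

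Etv4 had the highest ratio of the 9, with 79 positives against 71.3 expected, a ratio of 1.11. Its odds ratio was 1.79 with a 95% interval of 0.991 to 3.25 (unadjusted p = 0.0665, Benjamini-Hochberg adjusted p = 1). Fgf2 had the lowest, 19 positives against 21.7 expected, with an odds ratio of 0.608 and an interval of 0.273 to 1.35. At Fgfr1 88 positives stood against 93.5 expected, an odds ratio of 0.785 (0.525 to 1.17), and at Dusp4 62 against 67.1, an odds ratio of 0.723 (0.448 to 1.17). Spry1 and Spry2 were at 0.850 (0.517 to 1.40) and 1.05 (0.604 to 1.84), and Etv5 was at 1.08 (0.516 to 2.26). The intervals of Fgfr2, from 0.323 to 1.95, and Spry4, from 0.477 to 4.26, were wider, on fewer fragments. All 9 intervals included 1.

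Single regions were tested in the same way. Of 5742 regions with at least 20 listed fragments 12 were called, a percent_called of 0.209%, 1 higher and 11 lower, and 30 were called with the replicates pooled. Of the 11 such regions at the 10 loci 0 were called. The lowest unadjusted p was 0.0546, at the region 3.9 kb upstream of Fgfr1, where the ratio of observed to expected positives was 0.814 (adjusted p = 1). The ratio was highest at the Etv4 region in Dhx8, 1.17, and at the Etv4 intronic region, 1.12.

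A Negative fragment was often also positive. Of the 152 Negative fragments at the 10 loci, counted over the sorts, 66 (43.4%) were listed in a positive gate of the same sort, against 36.3% over all fragments. Most of this came from HE1 in replicate 1, where 56 of the 72 Negative fragments (77.8%) were also positive, against 71.3% of all Negative fragments of that sort. Identical fragments in more than 1 library made up 19.4% of the distinct fragments at the loci (98 of 504) and 19.0% of all, and 5 (0.992%) were in both replicates against 0.956% of all.

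**Figure D3:**
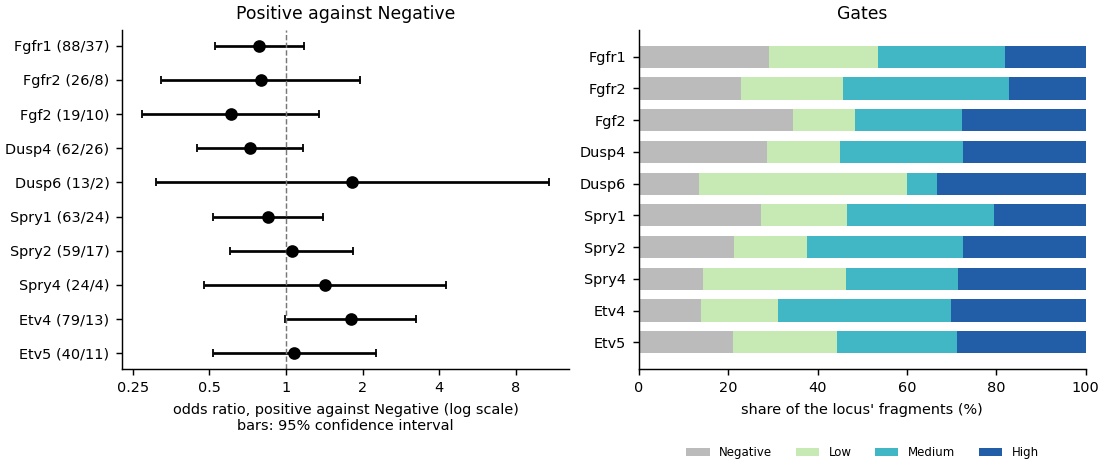
Left, odds ratio of positive against Negative fragments for each locus on a log scale with its 95% confidence interval, the numbers of positive and Negative fragments in brackets and equal odds as a dashed line. Right, share in percent of each locus' fragments found in the 4 gates, with fragments counted once per sort and gate. Every interval crosses 1, and Etv4 and Fgf2 lie furthest to either side among the 9 loci tested.

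Brightness was compared next, with High in place of positive and Low in place of Negative. Of 7930 loci with at least 20 High and Low fragments 0 were called by the Cochran-Mantel-Haenszel test, a percent_called of 0%, although 407 had an unadjusted p under 0.05, and pooling the replicates gave 143 calls. Of the 6 loci here that had enough fragments, 0 were called. Fgfr1 was furthest from 1, with 23 High and 31 Low fragments against 31.3 High expected, a ratio of 0.736 (unadjusted p = 0.0194, adjusted p = 0.935). The ratios of Dusp4, Spry2, Etv4 and Etv5 were 1.04, 1.10, 1.08 and 1.14, and that of Spry1 was 0.852. In replicate 1 the Low libraries of ES, HB, HE1, HE2 and HP held 8.46, 5.36, 4.53, 1.46 and 4.11 Fgfr1 fragments per 10000 and the High libraries 3.83, 3.67, 1.79, 1.10 and 1.82, so that Low was above High in 5 of 5 sorts. In replicate 2 the values were 5.67 in Low and 2.23 in High at ES, on 1 fragment each, 1.25 and 0 at HE1, and 4.00 and 0 at HE2. The limits of 3 counts for the latter High libraries were 21.2 and 45.9 per 10000, so that their order is not determined.

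The second question was whether the loci changed with the stage. Positive fragments are given per 10000 positive fragments of a sort, as mean ± SD with n = 2 replicates. The study describes a filter that kept fragments in open chromatin of the same stage. Whether it was applied to these lists is not stated, so an absence from all gates is no measure of activity. At Fgfr1 the mean was highest at ES, 3.81 ± 2.26, with 5.41 in replicate 1 and 2.22 in replicate 2, and lowest at HB, 1.54 ± 2.18. Spry1 was highest at HB, 2.49 ± 1.20, and lowest at HP, 0.378 ± 0.535. Spry4 was highest at HE2, 2.17 ± 1.00, with 0 at HP in both replicates, where the limits of 3 counts were 0.756 and 5.76. Dusp4 was highest at HP, 2.35 ± 0.603, and at HB, 2.08 ± 1.78, and lowest at ES, 0.541 ± 0.765. Etv4 was highest at HE1, 2.10 ± 2.16, and Etv5 at ES, 1.65 ± 0.803. Spry2 was lowest at HE1, 0.732 ± 0.629, and lay between 1.97 and 2.54 at the other 4 stages.

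At some loci the replicates of 2 stages did not overlap, of which the following are examples and not a full list. Both HE2 values of Spry4, 1.46 and 2.88, lay above those of the other stages, the Spry1 values of HB, 3.34 and 1.64, above those of HP, 0.756 and 0, and the Dusp4 values of HP, 2.77 and 1.92, above those of ES, 1.08 and 0. None of these differences passed the test over all loci. In replicate 2 the higher values rest on 1 fragment for Spry4 at HE2, 2 for Spry1 at HB and 1 for Dusp4 at HP. The values of 0 for Spry1 at HP and Dusp4 at ES had limits of 3 counts of 5.76 and 3.33 per 10000. The order in replicate 2 is therefore not determined, and the share of all loci with such a separation was not counted. Other loci here also had one. Both Spry2 values of HE1, 1.18 and 0.287, lay below those of HB, 2.31 and 1.64, on 1 and 2 fragments in replicate 2. Both Etv5 values of ES, 1.08 and 2.22, lay above those of HP, 0.756 and 0, on 2 and 0 fragments in replicate 2. Of the 50 combinations of a gene and a stage 34 had an SD above 0.5 times the mean, 23 had positives in both replicates, 22 in replicate 1 alone, 2 in replicate 2 alone and 3 in neither. The limma F test over the 5 stages called 0 of 10932 loci with at least 20 positive fragments, a percent_called of 0%, and 11 had an unadjusted p under 0.05. With the replicate as a block it again called 0, with 319 at an unadjusted p under 0.05. The 8 loci here that were tested had log2 ranges of stage means from 1.37 at Fgfr2 to 3.01 at Spry4, each with an adjusted p of 1.00. With 3 to 25 positive fragments over all 10 loci in a sort of replicate 2, a stage difference of this size was not detectable at this depth. On simulated data at this depth the test also missed larger differences, so its 0 calls do not show that the stages are alike.

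**Figure D4:**
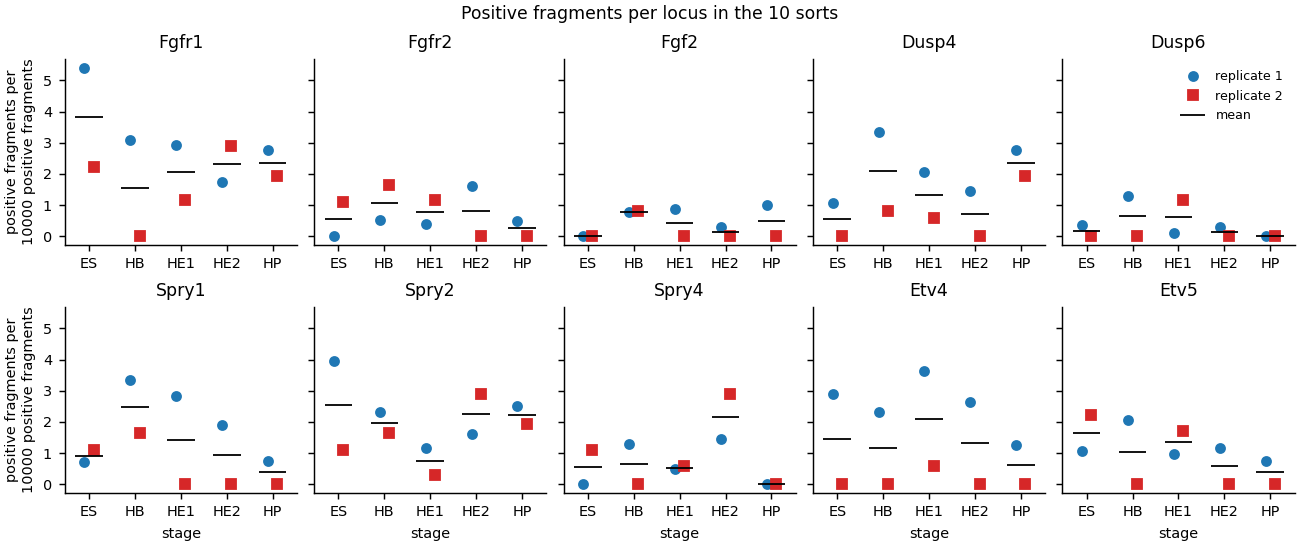
Positive fragments per 10000 positive fragments of the sort at each locus, over the 5 stages, with replicate 1 as blue circles, replicate 2 as red squares and the mean of both as a black line. At Fgfr1 in HB replicate 1 had 3.08 and replicate 2 had 0. At Spry4 both HE2 points lie above those of the other stages, the point of replicate 2 on 1 fragment.

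In the number of stages with a positive fragment, 7 of the loci had all 5 and Fgf2, Dusp6 and Spry4 had 4. Of the 55 regions with a positive fragment 28 (50.9%) had it at 1 stage and 8 (14.5%) at 5, against 61.6% and 7.39% of all such regions. Among regions with 20 or more fragments, 6 of 11 (54.5%) were positive at 5 stages against 58.0% of all, and ES was the stage most often missing, with positives in 6 of the 11 against 70.1% of all such regions. HB, HE1 and HE2 were each positive in 11 of 11, against 82.0%, 99.7% and 97.4% of all such regions.

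The replicates differed in their rate of fragments at these loci. Over the 10 loci together, positive fragments per 10000 ran from 12.4 to 20.3 in the 5 sorts of replicate 1 and from 5.76 to 8.87 in those of replicate 2, which did not overlap. Per library the mean was 15.8 ± 3.68 (SD, n = 20) in replicate 1 and 6.77 ± 4.69 (SD, n = 20) in replicate 2. In 16 of the 20 pairs of a stage and gate both libraries had fragments, and replicate 1 was above replicate 2 in all 16, the Negative gate included. In the other 4 pairs the library of replicate 2 listed no fragment of the 10 loci. The limit of 3 counts lay below the replicate 1 value in HE1 Medium, 11.1 against 16.6 per 10000. It lay above it in HE1 High, 21.2 against 14.3, in HE2 High, 45.9 against 14.8, and in HP High, 16.7 against 10.3, so that the order of these 3 pairs is not determined.

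Of the 10 loci 7 had a lower rate in replicate 2, near the share over all loci tested, 9567 of 13041 (73.4%). Etv4 stood lowest, with 91 listed fragments in replicate 1 and 2 in replicate 2, a ratio of the rates of 0.0816. Fgfr2 at 1.70 and Etv5 at 1.11 were higher in replicate 2, as was Dusp6 at 1.86 on 10 and 5 fragments. The share over all loci is to be read with care, because loci entered the tests by their total fragments, most of which came from replicate 1. The part of GC content, fragment length and depth, which also differed between the replicates, was not tested. Whether the odds of being positive differed between the replicates was tested at 1121 loci with at least 20 fragments in each, of which 0 were called, a percent_called of 0%, and none of the 10 loci had enough fragments in replicate 2 to enter. Of the 55 positive regions 23 were positive in replicate 1 alone, 23 in replicate 2 alone, 19 of the latter on 1 fragment, and 9 in both (16.4%, against 8.14% of all positive regions). The regions at the 10 loci were also fuller, with a median of 2 listed fragments against 1. Among regions with 20 or more fragments the shares were near each other, 5 of 11 (45.5%) against 43.2% of all such regions.

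**Figure D5:**
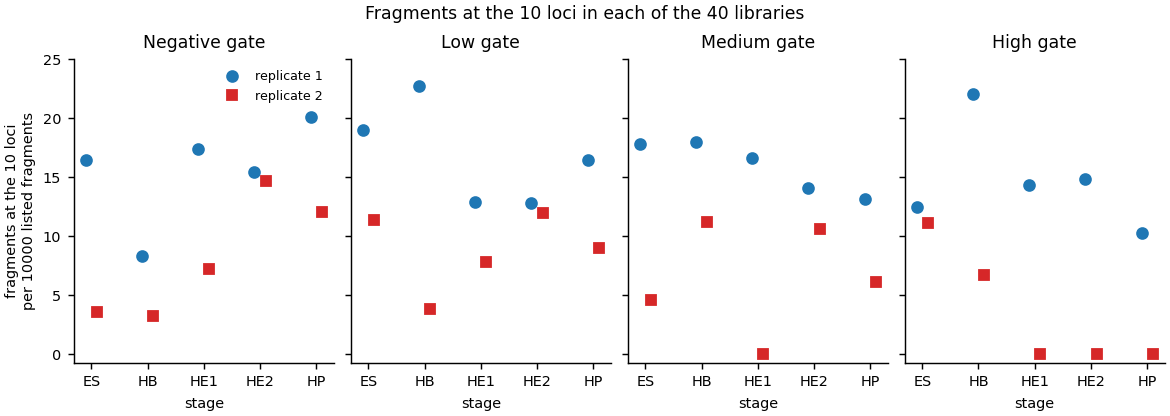
Fragments at the 10 loci per 10000 listed fragments of the library in each of the 40 libraries, by gate and stage, with replicate 1 as blue circles and replicate 2 as red squares. Replicate 1 lies above replicate 2 in the 16 pairs with fragments in both, and of the 4 libraries at 0, all of replicate 2, the limit of 3 counts for HE1, HE2 and HP High exceeds the replicate 1 value.

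The rest of the pathway was described from a list of 55 further genes of FGF ligands and receptors, adaptors, RAS, RAF and ERK kinases, inhibitors and ERK target genes, of which 54 were found in the annotation and 36 had enough fragments. None of the 36 was called, 15 had a ratio of observed to expected positives above 1 and 21 below, the median was 0.989 and the range 0.800 to 1.14. The ends of that range were Elk3, an ETS factor activated by ERK, with 24 positive and 15 Negative fragments (unadjusted p = 0.0263, adjusted p = 1), and the kinase Araf, with 58 and 8 (unadjusted p = 0.0493, adjusted p = 1). Fos, the immediate early gene, had the most fragments of the list, 526, with a ratio of 0.979, and Il17rd, which encodes the FGF antagonist SEF, was at 1.01. The locus of Cic itself had 72 positive and 20 Negative fragments, a ratio of 0.995. In the comparison of High with Low 24 of the list were tested and 0 were called.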

How the data were processed

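The authors cloned Tn5 fragments into the Hprt reporter, amplified the inserts of sorted cells with 25 to 30 PCR cycles and sequenced read pairs. Per the labels and methods, reads were trimmed with Trim Galore, aligned to mm10 with bowtie2 (inserts up to 600 bp) and kept as proper pairs with mapping quality over 40 (SAMtools), and duplicates were reduced to 1. For the reporter reads the sources used here give no tool versions. The described filters were against a background library, for open chromatin of the same stage, and for distance from start sites. The sources do not say which of them were applied to each list. Where a region had no fragment in any gate at a stage, the absence is therefore no measure of its reporter activity there. The files the authors deposited are lists of fragment coordinates in mm10, 1 per library, with no read counts. Depth is thus the number of fragments, and PCR copies with shifted ends can count more than once.

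Libraries were grouped by their titles. The 10 genes, the pathway list, the motifs and the tests were chosen with earlier results of these data known. Gene loci were RefSeq genes of GRCm38 with 25 kb on each side, so that loci overlap and share fragments. Loci and regions needed 20 listed fragments. Cochran-Mantel-Haenszel tests with continuity correction used the 10 sorts as strata (Python 3.11.15, scipy 1.17.1), and limma 3.58.1 was run on log2 of positive fragments scaled to the total of the sort, with a pseudocount of 1 fragment at the mean depth. All p-values were adjusted by Benjamini-Hochberg over all loci or regions, and both tests were tested on simulated data. The limma stage test recovered none of the largest simulated stage differences at the real depth and most of them at a greater depth. For each gene the leading region is described, and a few other regions and pathway genes were named after their values were seen. The sources do not say whether the replicates came from separate transfections or cultures. The limma p-values measure the spread between these samples, which may be technical, and the other p-values cover counting error only. Replicate numbers were taken to pair the sorts because, across 10932 loci, the deviations of same-numbered sorts correlated in each of the 10 pairs of stages, at 0.255 to 0.418. The part of the gap in depth between the replicates and of the pseudocount in these correlations was not tested, so they do not establish a pairing. The main limma test had no replicate term, and the replicate entered it as a block in an alternative. Intervals are at 95%, and the limit for a count of 0 is 3 counts. No column of other samples was found.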

Additional observations from a re-analysis of the deposited data

How the results depend on the processing

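No member of the 10 loci passed an adjusted p of 0.05 under any alternative. The lowest adjusted p over all of them was 0.895 for positive against Negative fragments per locus, 1 per region, 0.919 for the stage test and 0.413 for High against Low. Counts over all loci or regions moved more. Against 13 loci called, a flank of 100 kb gave 27, the nearest start site 8, a minimum of 50 fragments 3 and of 5 fragments 22, and leaving out fragments of both gate classes 23. Collapsing fragments within 5 bp left 0 calls by the Cochran-Mantel-Haenszel test, with 262 loci at an unadjusted p under 0.05. Leaving out a replicate or a sort gave 3 to 18, with 3 without replicate 2, 5 without HB replicate 2 and 6 without HE1 replicate 2. Against 12 regions, the same collapse left 0 by that test, with 103 at an unadjusted p under 0.05, leaving out shared fragments gave 26, and leaving out a replicate or a sort 5 to 19, with 5 without replicate 2 and without HE1 replicate 2, 7 without ES or HB replicate 2 and 19 without HP replicate 2. Against 0 loci in High against Low, leaving out shared fragments gave 2 and leaving out a replicate or a sort 0 to 10. The limma test of stages gave 0 under every alternative, which at this depth does not show that the stages are alike. The causes were not tested.

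The sorts as strata are the replicate block. Without it, with the replicates of a stage pooled, 24 loci, 30 regions and 143 loci of High against Low were called. The stage test called 0 with and without the block, which at this depth says nothing about the stages.

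The ratio of observed to expected positives crossed 1 at several loci, always with an adjusted p near 1 or without enough fragments for a test. With a flank of 10 kb Fgfr2 was at 1.06 and Fgf2 at 1.25, the latter on 1 fragment. With 100 kb Fgfr2 was at 1.00, Spry2 at 0.973, Spry4 at 0.976 and Etv5 at 0.978. By the nearest start site Fgfr2 was at 1.01 and Spry2 at 0.990, and without shared fragments Etv5 was at 0.996. Leaving out a replicate or a sort gave 0.909 to 1.02 at Fgfr1, 0.902 to 1.03 at Spry2 and 0.973 to 1.07 at Etv5. For single regions it gave 0.943 to 3.87 at the Dusp4 leading region, 0.829 to 1.06 at that of Etv5 and 0.983 to 1.25 at that of Spry2. The values of 3.87, 0.829 and 1.25 came without replicate 1. They rest on 1 positive at Dusp4, 2 positives and 1 Negative at Etv5, and 1 positive at Spry2. In High against Low it gave 0 to 1.14 at Dusp4, 0.704 to 1.12 at Spry1 and 0 to 1.11 at Etv4, and Spry1 was at 1.04 with the replicates pooled. The values of 0 came without replicate 1, on 3 Low fragments at Dusp4 and 2 at Etv4. Etv4 stayed above 1 and Dusp4 and Spry1 below 1 in positive against Negative fragments under all 20 alternatives. Not all of these could move the ratio, and a minimum of 50 or of 5 fragments left it as it was. At Etv4, leaving out a sort of replicate 2 other than HE1 removed no fragment. Without replicate 1 its ratio rested on 2 fragments. Fgfr1 stayed below 1 in High against Low under all 15, from 0.552 to 0.793. Leaving out HB or HP replicate 2 removed none of its High or Low fragments. The median library of replicate 2 held 2750 fragments, which limits what it can show.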
